A study of Mus musculus with 36 samples.

Results

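To describe the part of the microglial response to TNF and the TAK1 inhibitor 5z-7 that was present while RIPK1 kinase activity was blocked, the 4 libraries of microglia given TNF, 5z-7 and Nec-1s (T/5z/N) were compared with the 4 libraries of DMSO microglia, 8 of the 36 samples of the series. Genes were kept where the log2 value was at least 1 in 4 or more of the 24 microglial libraries, which left 10524 of the 15385 genes of the microglial table. The cells were primary microglia of C57BL/6 mice, selected with CD11b beads from mixed glial cultures of pooled newborn brains, and they carried no targeted allele. All 6 microglial groups were harvested 4 h after treatment and had 4 libraries each, which were DMSO (the vehicle), Nec-1s alone, T/5z, T/5z/N, T/S/Z (TNF, a Smac mimetic and the caspase inhibitor zVAD) and T/S/Z/N. No library received TNF alone or 5z-7 alone, so the parts of TNF and 5z-7 in the T/5z/N response cannot be told apart. The other 12 libraries of the series were astrocytes and were not used.

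TNF binds the receptors TNFR1 and TNFR2. At TNFR1 it assembles a complex of TRADD, TRAF2, the ubiquitin ligases cIAP1 and cIAP2 and the kinase RIPK1, from which TAK1, encoded by Map3k7, passes the signal to the IKK kinases and to MAP kinases. IKK frees the NF-κB dimers, which switch on genes of inflammation and survival and also their own inhibitors, and the MAP kinases act on AP-1 factors. When TAK1 is inhibited, RIPK1 can turn to its kinase-dependent role and start apoptosis, and Nec-1s inhibits that kinase. In the brain, microglia are the resident macrophages, and TNF moves them from a homeostatic to an inflammatory set of genes.

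The deposited values are log2(FPKM + 1), where FPKM is fragments per kilobase of exon, scaled to sequencing depth, and all levels and changes below are on that log2 scale unless a sentence says FPKM. A difference of 1 is a doubling, and because 1 was added before the log, changes of weakly expressed genes come out too small. A gene was called when its fold change was above 1.5 and its Benjamini-Hochberg adjusted p in limma, with the replicate number as a block, was below 0.05 over all 10524 genes. SE is the standard error of the change in that model and ± gives the SD of 4 libraries.

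The 8 libraries carried microglial RNA. The summed FPKM of the 14 microglia and macrophage identity markers was 6210 to 6690 in DMSO and 6020 to 6440 in T/5z/N. Within this sum, Csf1r, Aif1, Ptprc, Tmem119 and Spi1 were higher in T/5z/N without overlap. Cx3cr1, P2ry12, Cd68, Fcgr3 and Laptm5 were lower without overlap. The 10 astrocyte markers summed to 9.64 to 11.5 FPKM in DMSO and 11.1 to 11.3 in T/5z/N, the 8 fibroblast and mural markers to 8.28 to 11 and 9.13 to 12, and the 5 neuron markers in the table to 1.08 to 1.55 and 1.23 to 1.59. Border macrophage markers (5 in the table) were at 178 to 188 and 182 to 197 FPKM, and the 4 neutrophil and mast cell markers at 0.0777 to 17.7 and 0.0143 to 5.59, with S100a8, S100a9, Mpo and Elane each at 0 in 2 or 3 of the 8 libraries. Among markers of rare neighbours, the 4 endothelial markers in the table were lower in T/5z/N (4.23 to 4.67 FPKM against 7.64 to 9.47), as were the 8 oligodendrocyte lineage markers (47.3 to 51.2 against 55.6 to 58.4). Single markers of these lists that were lower without overlap were Pecam1 (2.06 to 2.62 against 4.29 to 5.56), Kdr (0.901 to 1.23 against 1.82 to 2.76), Flt1 (0.792 to 0.879 against 0.917 to 1.36), Cspg4 (1.85 to 2.72 against 5.47 to 6.67) and Cnp (20.6 to 22.1 against 24.8 to 26.3). The border macrophage marker Mrc1 (35.9 to 38.6 against 39.5 to 44.1) and the fibroblast marker Lum, near 0, were also lower without overlap. Mbp, of the oligodendrocyte lineage list, was at 23.3 to 25.3 FPKM against 22 to 23.6. The astrocyte markers Aqp4 (0.94 to 1.23 against 0.337 to 0.769) and Slc1a3 (0.973 to 1.3 against 0.67 to 0.928) were higher without overlap. In such bulk samples fewer cells of a type and less RNA per cell cannot be told apart, and the part of these cells in the results was not tested. Mitochondrial transcripts took 0.559% to 1.1% of the summed FPKM in DMSO and 0.678% to 1.21% in T/5z/N. The annotation marks 640 of the 1352 called genes as confounded, beside 5257 of all 10524 tested genes, a mark it does not define, and 48 of the 125 genes named by rule carry it. Among the genes whose library values or ranges are given below it is on Icam1, Hpgd, Ripk1, Map3k7, Nfkb2, Cxcl10, Ccl2, Fas, Mertk, Irf1, Sqstm1 and Dock8, and among other genes named by rule on Mtus1, Rassf3, Xylt1, Thbs1, C130050O18Rik, Herpud1, Bcl3, Gpr84, Synj2, Cttnbp2nl, Engase, Slc16a6, Arrdc3, Snn, Ikbke, Nfkb1, Il16, Bcl2a1d, Bcl2a1b, Itga4, Vcam1, Gpr34, Ank, Fpr2, Rgs3, Mvd, Cdkn1a, Mki67, Mcm7, Slc7a11, Txnrd1, Ppp1r15a and Heatr1.

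With Nec-1s present, T/5z still changed 1352 of the 10524 genes against DMSO, which is 12.8% of those tested. Of these, 648 were higher (6.16%) and 704 were lower (6.69%), and the median change of all tested genes was -0.017. The 4 T/5z/N values and the 4 DMSO values overlapped in 15 of the 1352 called genes, and 1344 moved the same way in 4 of 4 pairs. The calls came from these same libraries, so both counts follow largely from the calling and are no further support. The plot of the largest changes shows the 12 genes that rose and the 12 that fell the most, with the T/5z libraries beside them.

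**Figure D1:**
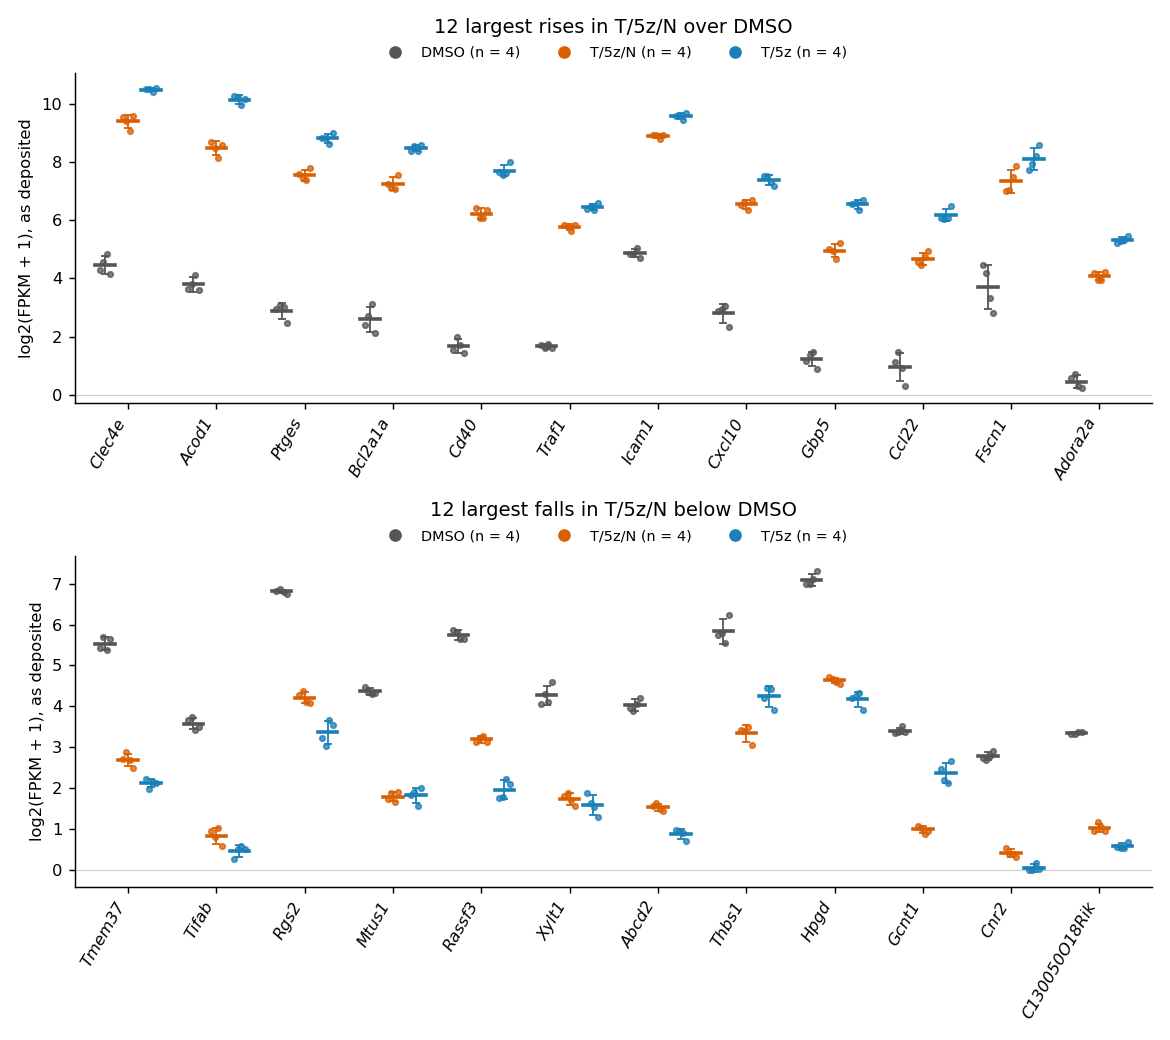
Levels of the 12 genes with the largest rises (top) and the 12 with the largest falls (bottom) in T/5z/N against DMSO, as deposited log2(FPKM + 1) on the y axis. Points are single libraries, with DMSO in grey, T/5z/N in orange and T/5z in blue, and bars give the mean and SD of 4 libraries. In each of the 24 genes the 4 T/5z/N libraries lay apart from the 4 DMSO libraries, as the choice by size of change favours.

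Clec4e, Acod1 and Ptges had the largest rises of all genes that moved the same way in 4 of 4 pairs. Clec4e encodes Mincle, a C-type lectin receptor for glycolipids and dead cells (ENSMUSG00000030142, chromosome 6, 123281789 to 123289870), and its values were 4.29, 4.57, 4.83 and 4.15 in the DMSO libraries 1 to 4 and 9.53, 9.40, 9.06 and 9.57 in T/5z/N. Every T/5z/N library was far above every DMSO library, a rise of 4.93 (SE 0.17). Acod1, which makes itaconate (ENSMUSG00000022126, chromosome 14, 103046977 to 103056573), was at 3.63, 3.81, 4.13 and 3.60 in DMSO and 8.68, 8.47, 8.13 and 8.59 in T/5z/N, a rise of 4.68 (SE 0.15). Ptges, the synthase of prostaglandin E2 (ENSMUSG00000050737, chromosome 2, 30889471 to 30903297), was at 2.97, 3.07, 3.01 and 2.48 in DMSO and 7.57, 7.44, 7.37 and 7.80 in T/5z/N, a rise of 4.66 (SE 0.15). For both enzymes the groups stood apart by at least 4 units. Cd40, a costimulatory receptor of the TNF receptor family (ENSMUSG00000017652, chromosome 2, 165055627 to 165072948), rose from 1.56, 1.99, 1.71 and 1.43 to 6.40, 6.07, 6.08 and 6.35, and Icam1, the adhesion ligand of β2 integrins (ENSMUSG00000037405, chromosome 9, 21015985 to 21028817), from 4.84, 4.85, 5.06 and 4.71 to 8.94, 8.91, 8.79 and 8.92. Their rises were 4.55 (SE 0.13) and 4.02 (SE 0.077). Icam1 varied little within each group, whereas Fscn1, the actin bundler fascin, spread from 2.82 to 4.48 in DMSO and from 6.99 to 7.84 in T/5z/N, and still rose by 3.62 (SE 0.36). The remaining genes of the 12 were the survival gene Bcl2a1a (4.66), the TRAF adaptor Traf1 (4.10), the chemokines Cxcl10 (3.74) and Ccl22 (3.72), the interferon-inducible GTPase Gbp5 (3.72) and the adenosine receptor Adora2a (3.62). The largest limma adjusted p among these 12 was 9.74e-05, that of Fscn1.

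The promoters of these genes were searched for κB motifs, because NF-κB is the factor that TNF is best known to engage. A window of 250 bases before to 50 bases after the start site was read from RefSeq (GRCm38.p6), and 10 of the 12 genes had one. The letters searched were GGANTTTCC, GGAANTTCC and GGAANTCCC on both strands, and sites that more than one of them matched were counted once. Of the 10 windows, 4 held a match, and they are printed to show where the letters stand in genes that rose together. The capitals mark the κB match, each window runs 5′ to 3′ along the gene, and the distances given are from the start site.

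Acod1, chr14:103046762-103047061, plus strand, match at -85: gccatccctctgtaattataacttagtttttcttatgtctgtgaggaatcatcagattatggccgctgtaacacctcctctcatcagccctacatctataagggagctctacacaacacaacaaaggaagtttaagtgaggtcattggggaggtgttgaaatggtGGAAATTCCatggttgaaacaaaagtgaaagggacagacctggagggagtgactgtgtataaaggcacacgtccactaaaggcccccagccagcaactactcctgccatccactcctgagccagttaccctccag
Icam1, chr9:21015690-21015989, plus strand, match at -153: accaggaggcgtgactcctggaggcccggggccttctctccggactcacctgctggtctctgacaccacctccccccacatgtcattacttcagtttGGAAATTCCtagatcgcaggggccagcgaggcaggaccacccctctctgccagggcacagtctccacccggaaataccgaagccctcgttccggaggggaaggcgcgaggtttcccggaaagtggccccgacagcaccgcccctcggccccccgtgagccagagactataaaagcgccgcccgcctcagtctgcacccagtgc
Cxcl10, chr5:92348840-92349139, minus strand, matches at -158 and -103: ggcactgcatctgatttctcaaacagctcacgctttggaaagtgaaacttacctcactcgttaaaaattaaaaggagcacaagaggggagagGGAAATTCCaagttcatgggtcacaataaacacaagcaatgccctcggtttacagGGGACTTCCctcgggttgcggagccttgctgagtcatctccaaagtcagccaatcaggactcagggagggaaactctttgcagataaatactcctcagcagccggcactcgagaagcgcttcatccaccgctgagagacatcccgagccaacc
Gbp5, chr3:142496684-142496983, plus strand, match at -77: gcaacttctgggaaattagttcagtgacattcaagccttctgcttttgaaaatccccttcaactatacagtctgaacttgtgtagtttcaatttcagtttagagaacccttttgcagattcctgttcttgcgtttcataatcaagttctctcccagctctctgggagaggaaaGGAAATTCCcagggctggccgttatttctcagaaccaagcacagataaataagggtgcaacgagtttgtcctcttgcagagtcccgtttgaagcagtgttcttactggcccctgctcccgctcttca

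Over all 27025 symbols with a window, 952 held a κB match (3.52%). Among the 71 genes called higher by at least 2 in T/5z/N, 61 had a window and 14 of these held one (23.0%). The AP-1 letters TGANTCA stood in 7.93% of all windows and in 9.84% of the 61. Of the 8342 tested genes with a window, 4.72% held a κB match and 4.74% an AP-1 match. The κB share was 8.91% of the 516 higher and 3.24% of the 556 lower called genes with a window, and 1 of 7 among the 12 largest falls. Fewer than 80% of the genes in each of these last 4 sets had a window. A match is a description of the letters, and its absence says nothing about the factor.

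Rgs2, which turns off Gq-coupled receptor signals (ENSMUSG00000026360, chromosome 1, 143999338 to 144004161), was at 6.82, 6.86, 6.80 and 6.75 in DMSO and 4.27, 4.37, 4.10 and 4.09 in T/5z/N, a difference of -2.60 (SE 0.054). The 4 libraries of each group lay close to each other, and the groups did not overlap. Hpgd, which breaks down prostaglandins (ENSMUSG00000031613, chromosome 8, 56294585 to 56321043), fell from 6.98, 6.98, 7.10 and 7.31 to 4.71, 4.67, 4.60 and 4.55 (-2.46, SE 0.081). Cnr2, the cannabinoid receptor of immune cells (ENSMUSG00000062585, chromosome 4, 135895394 to 135920207), fell from 2.73, 2.68, 2.79 and 2.90 to 0.54, 0.38, 0.40 and 0.31, close to the low end of the scale (-2.37, SE 0.089). Tmem37 had the largest fall of all tested genes that moved the same way in 4 of 4 pairs, from 5.43, 5.69, 5.37 and 5.64 to 2.72, 2.87, 2.68 and 2.50 (-2.84, SE 0.081), and the matrix protein gene Thbs1 fell by 2.49. The other falls among the 12 were those of Tifab (-2.74), a brake on TRAF6 signalling, Mtus1 (-2.57), Rassf3 (-2.56), the glycosyltransferases Xylt1 (-2.53) and Gcnt1 (-2.41), the peroxisomal fatty acid transporter Abcd2 (-2.50) and C130050O18Rik (-2.32).

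The pathway lists were then read in the order of the signal, and the plot of the list members shows each tested gene. Background shares for reading these counts are the 6.16% of all tested genes called higher and the 6.69% called lower.

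**Figure D2:**
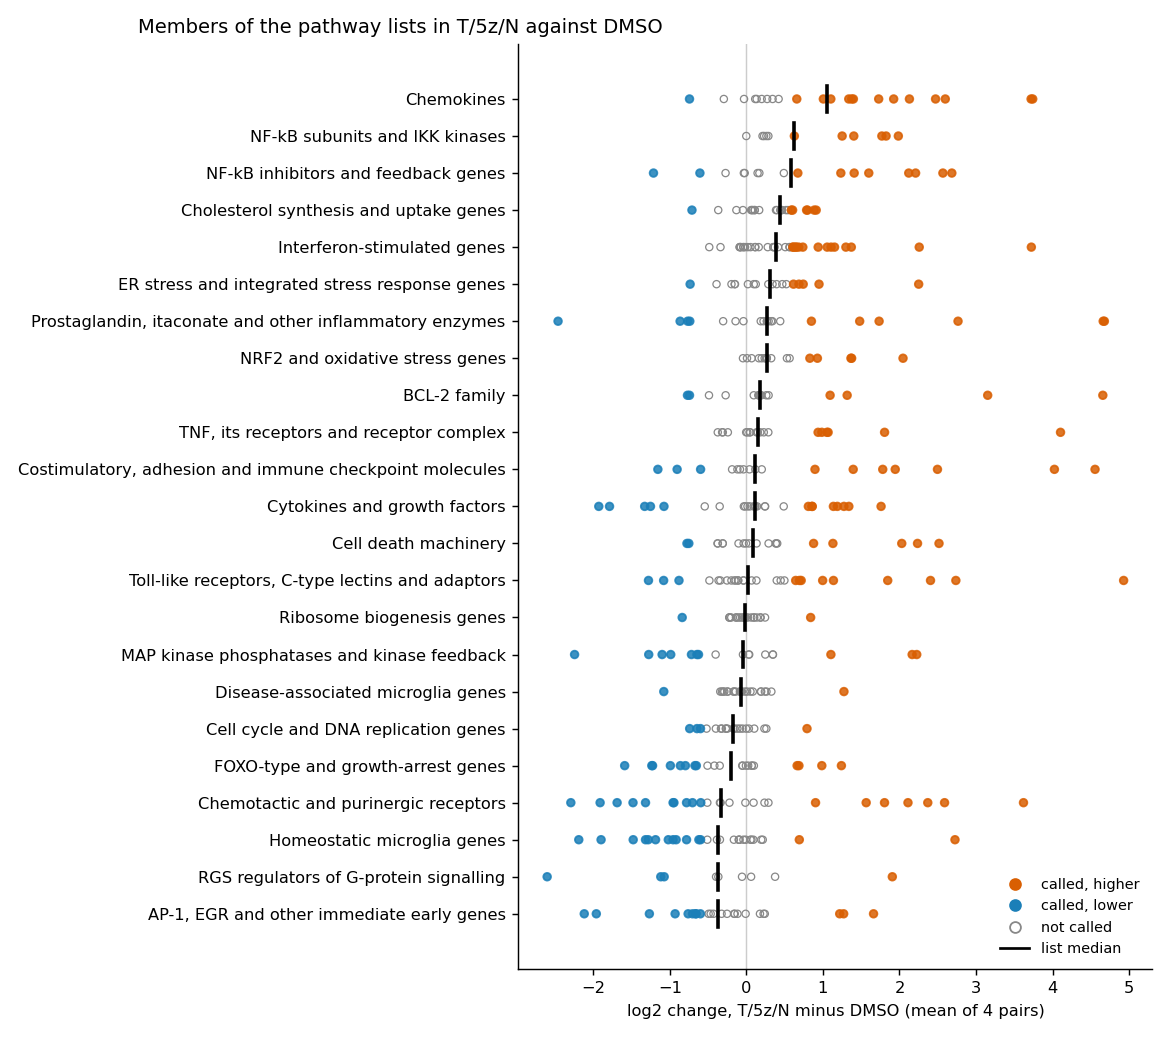
Log2 change in T/5z/N against DMSO (x axis, mean of 4 pairs) for every tested member of the 23 pathway lists (y axis), ordered by list median. Filled points are called genes, orange for higher and blue for lower, open points are genes not called, and black bars are list medians. Chemokines had the highest median, 1.05, and the immediate early genes the lowest, -0.38.

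Most genes of the receptor complex were not called. Of the 19 genes of TNF, its receptors and the receptor complex, 6 were higher, none were lower and the median was 0.15. Ripk1 itself was at 5.25, 5.21, 5.14 and 5.21 in DMSO and 4.94, 4.98, 5.01 and 4.92 in T/5z/N, lower in each pair but by only 0.24 (SE 0.053, limma adjusted p 0.00729), which is short of the fold-change minimum. Tnfrsf1a, which encodes TNFR1, was at 6.31 to 6.47 and 5.97 to 6.09 (-0.37, not called), and Map3k7 at 3.59 to 3.77 and 3.85 to 3.96 (0.18, limma adjusted p 0.0571, not called). Tnfrsf1b, which encodes TNFR2, was the most abundant of these transcripts and rose from 8.61, 8.62, 8.54 and 8.58 to 9.56, 9.52, 9.50 and 9.51 (0.94, SE 0.047). Tnf was at 2.69, 2.80, 3.21 and 2.70 in DMSO and 3.84, 3.96, 3.79 and 4.08 in T/5z/N, and its rise of 1.07 (SE 0.12) is discussed again below against T/5z. The adaptor Traf1 (4.10), its partner Traf2 (0.99) and the cIAP genes Birc3 (1.81) and Birc2 (1.05) completed the members that rose.

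More NF-κB genes rose than fell. Among the 11 subunits and IKK kinases, 6 were higher and none lower, with a median of 0.63. Relb was at 4.82, 4.99, 5.03 and 4.95 in DMSO and 6.80, 6.76, 6.70 and 6.84 in T/5z/N, and Nfkb2, the precursor of its partner p52, at 5.82, 5.81, 5.88 and 5.75 and 7.60, 7.63, 7.53 and 7.58. Their rises were 1.82 (SE 0.062) and 1.77 (SE 0.05), beside 1.99 for the kinase gene Ikbke, 1.40 for Nfkb1, 1.25 for Map3k14 and 0.63 for Rela. Rel (0.26), Chuk (0.21), Ikbkb (0.29), Tbk1 (0.23) and Ikbkg were not called. Of the 16 inhibitors and feedback genes, 8 were higher, 2 lower and the median was 0.58. Nfkbia, which encodes IκBα, rose from 5.29, 5.47, 5.62 and 5.41 to 8.20, 8.12, 8.06 and 8.15 (2.68, SE 0.074), and Tnfaip3, the deubiquitinase A20, from 2.79, 2.91, 2.99 and 2.85 to 4.98, 5.02, 4.94 and 5.07 (2.12, SE 0.064). Nfkbie (2.57), Bcl3 (2.21), Nfkbib (1.60), Tnip3 (1.41), Tnip1 (1.23) and N4bp1 (0.67) also rose, whereas Nfkbiz (-0.61) and the ribonuclease gene Zc3h12a (-1.21) fell.

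Chemokines were the list with the highest median, 1.05, and 13 of its 22 tested members rose while 1 fell. With ordinary per-gene variance in limma in place of the moderated one, 7 members of the list were called in place of 14. Cxcl10, a ligand of CXCR3, was at 2.88, 2.96, 3.04 and 2.32 in DMSO and 6.52, 6.61, 6.35 and 6.69 in T/5z/N, and Ccl22, a ligand of CCR4, at 1.12, 1.48, 0.93 and 0.31 and 4.58, 4.46, 4.73 and 4.94. Each T/5z/N library was above each DMSO library in both genes. The monocyte attractant Ccl2 was at 0.25, 0.79, 1.11 and 1.16 in DMSO and 3.86, 3.78, 2.83 and 2.73 in T/5z/N (2.47, SE 0.31), with T/5z/N replicates 3 and 4 about 1 unit below replicates 1 and 2. Cxcl3 (2.60), Cx3cl1 (2.13), Ccl7 (1.92), Cxcl1 (1.73), Ccl4 (1.40), Ccl9 (1.38), Ccl3 (1.34), Cxcl11 (1.10), Cxcl2 (1.01) and Cxcl16 (0.66) rose as well. Ccl5 had a mean of 9.60 in DMSO and a change of 0.27 that was not called, and Cxcl14 fell by 0.74.

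Cytokines and growth factors were divided, with 8 of 26 tested genes higher, 5 lower and a median of 0.12. Those that rose were Il15 (1.76), a growth factor of lymphocytes, Gdf15 (1.34), Csf1 (1.27), the IL-1 receptor antagonist Il1rn (1.19), Pdgfb (1.14), Tnfsf9, Ebi3 and Il27. Il15 was at 2.44, 2.78, 2.29 and 2.19 in DMSO and 4.22, 4.02, 4.18 and 4.31 in T/5z/N. Il1b, the IL-1β gene, had a DMSO mean of 5.14 and a change of 0.045, and Il1a and Il6, near the bottom of the scale, had changes of 0.12 and 0.14. None of these 3 was called. The growth factor genes Vegfa (-1.93), Inhba (-1.33) and Hbegf (-1.08) fell, as did Il16 (-1.79) and Osm (-1.25). Vegfa was at 2.79, 2.77, 2.91 and 2.83 in DMSO and 0.75, 0.80, 1.00 and 1.04 in T/5z/N, with no overlap.

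Inflammatory enzymes rose in 6 and fell in 4 of 21 tested genes. Besides Acod1 and Ptges, the mitochondrial superoxide dismutase gene Sod2 rose from 4.34, 4.35, 4.64 and 4.24 to 7.24, 7.20, 6.95 and 7.24 (2.76, SE 0.10), and Ch25h (1.73), Gch1 (1.48) and Nos2 (0.85) rose too. All 4 genes that fell act in prostaglandin metabolism, namely the cyclooxygenases Ptgs1 (-0.87) and Ptgs2 (-0.74), the prostaglandin D2 synthase Hpgds (-0.77) and the degrading enzyme Hpgd (-2.46). This last grouping was made after the values were seen.

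Of the pattern recognition list, 9 of 28 tested genes rose and 3 fell. Tlr1 (2.74), Tlr2 (1.85) and Tlr6 (1.14), which pair to sense bacterial lipopeptides, rose, and Tlr8 (-1.28), the lipopolysaccharide receptor gene Tlr4 (-1.08) and Tlr13 (-0.88) fell. Tlr2 was at 6.79, 6.83, 7.08 and 6.76 in DMSO and 8.74, 8.69, 8.54 and 8.86 in T/5z/N. The lectin receptor genes Clec4e, Clec5a (2.41) and Clec4a1 (0.69) rose, while Clec7a (-0.14), Clec4n (0.069) and Clec4d (0.40) were not called. In the costimulatory and adhesion list 7 of 17 rose and 3 fell. Beside Cd40 and Icam1 these were the integrin gene Itga4 (2.50), its ligand Vcam1 (1.94), Cd83 (1.78), Cd274, which encodes PD-L1 (1.40), and Itgal (0.90). Cd200r1 (-1.16), an inhibitory receptor, Cd44 (-0.90) and Selplg (-0.60) fell, and the costimulatory genes Cd80 (-0.084) and Cd86 (0.041) were not called.

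Receptors for chemotactic and purinergic ligands had 17 of 25 tested members called, with 7 higher and 10 lower and a median of -0.34. Adenosine receptors differed among themselves. Adora2a, coupled to cyclic AMP, was at 0.57, 0.72, 0.30 and 0.24 in DMSO and 4.17, 3.95, 3.95 and 4.24 in T/5z/N, Adora2b rose by 1.80, and Adora3 fell by 0.78. The formyl peptide receptor genes Fpr1 (2.59) and Fpr2 (2.37), the decoy-like Ccrl2 (2.11), Ptafr (1.56) and Hcar2 (0.90) rose. Ccr1, a receptor for chemokines, fell from 2.22 ± 0.29 to 0.31 ± 0.23 (means with SD, n = 4, -1.91, SE 0.17). Among the other falls were those of C5ar2 (-1.69), S1pr1 (-1.48), P2ry6 (-1.32), Cx3cr1 (-0.96), P2rx7 (-0.95), C5ar1 (-0.70) and Cxcr4 (-0.60). Of the 9 tested RGS genes, Rgs3 rose (1.91) and Rgs2, Rgs14 (-1.12) and Rgs1 (-1.07) fell.

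Immediate early and MAP kinase feedback genes fell more often than they rose. In the AP-1 and EGR list 9 of 24 tested genes fell, 3 rose and the median was -0.38. Fosl2 was at 4.25, 4.36, 4.36 and 4.69 in DMSO and 2.76, 2.52, 2.04 and 1.88 in T/5z/N (-2.12, SE 0.18), and Nr4a1, an orphan nuclear receptor gene, at 3.17, 3.48, 3.66 and 3.66 and 2.03, 1.89, 1.19 and 1.02 (-1.96, SE 0.23). Klf2 (-1.27), Egr1 (-0.93), Nr4a2 (-0.76), Fos (-0.70), Btg2 (-0.66), Klf4 (-0.66) and Ier2 (-0.60) fell too, and Jun (-0.49) and Jund (-0.47) were not called. Those that rose were Batf (1.66), Junb (1.27) and Maff (1.22). Among the 17 tested MAP kinase phosphatases and feedback genes 7 fell and 3 rose. Dusp6, the phosphatase of ERK, was at 3.54, 3.64, 4.08 and 4.26 in DMSO and 1.92, 1.72, 1.35 and 1.56 in T/5z/N (-2.24, SE 0.18), and Spry2 (-1.28), Dusp7 (-1.10), Dusp3 (-0.99), Dusp5 (-0.72), Spred2 (-0.65) and Dusp1 (-0.63) fell with it. Dusp2 (2.23), Gadd45b (2.17) and Spred1 (1.10) rose. With 5 added before the log, 7 genes of the first list and 6 of the second were called, and 6 of each at a fold minimum of 2.

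Genes of cell death and survival were present on both sides. Of the 20 tested death genes 5 rose, which were the death receptor gene Fas (2.52), Nlrp3 (2.24), Casp4 (2.03), Cflar (1.13), which encodes the caspase-8 inhibitor c-FLIP, and Casp1 (0.88). Of the 2 that fell, Casp2 changed by -0.78, and Casp8 (-0.38), Ripk3 (0.29) and Mlkl (-0.00485) were not called. Fas was at 1.75, 1.89, 1.74 and 1.30 in DMSO and 4.05, 4.12, 4.15 and 4.44 in T/5z/N. Of the 16 tested BCL-2 family genes 4 rose and 2 fell. The A1 genes Bcl2a1a, Bcl2a1d (3.15) and Bcl2a1b (1.32) are near-identical copies that may share reads, so how the rise divides among them is uncertain. Pmaip1, the NOXA gene, rose by 1.09, while Bmf (-0.77) and the survival gene Bcl2l1 (-0.74) fell.

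Homeostatic microglial genes fell in 12 and rose in 2 of 28 tested members, with a median of -0.36. Mertk, the receptor for engulfing apoptotic cells, fell from 5.03, 5.02, 5.08 and 5.16 to 3.24, 3.19, 3.23 and 3.03 (-1.90, SE 0.069), and Gpr34 (-1.48), P2ry6, Mef2c (-1.28), Golm1 (-1.19), Entpd1 (-1.02), Cx3cr1, Mef2a (-0.92), Adora3, Tgfbr1 (-0.62) and Selplg also fell. The 2 members that rose were Tmem119 (0.69) and Gpr84 (2.73), a receptor known to rise in activated microglia. Tmem119 was short of the fold-change minimum against Nec-1s (0.55). Csf1r (0.21), Trem2 (-0.089), Tyrobp (0.053) and the C1q genes (0.067 to 0.19) were not called at means of 9.56 to 11.53 in DMSO. P2ry12 was low in these cultures, at 2.39 in DMSO, and its change of -0.51 was not called. Of the 24 tested disease-associated microglia genes only Csf1 rose and Ank (-1.08) fell, and Apoe (-0.085), Lpl (0.084), Spp1 (0.0094), Cst7 (0.19) and Gpnmb (-0.17) were not called.

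Interferon-stimulated genes rose in 14 of 36 tested members and fell in none, with a median of 0.39. Gbp5 was at 1.18, 1.36, 1.48 and 0.91 in DMSO and 5.01, 4.94, 4.66 and 5.21 in T/5z/N, and the factor gene Irf1 at 4.57, 4.70, 4.46 and 4.26 and 6.80, 6.70, 6.61 and 6.92 (2.26, SE 0.096). Rsad2 (1.37), Ifit1 (1.30), Cmpk2 (1.15), Gbp2 (1.11), Ifi47 (1.06), Gbp3 (0.94), Gbp7 (0.74), Isg15 (0.68), Ifit2 (0.65), Tap1 (0.64), Ifit3b (0.61) and Oasl1 (0.61) were the others, of which the Gbp genes and Ifit3b have close copies. Irf7 (-0.017), Stat2 (-0.038), Mx1 (0.35), Bst2 (-0.041) and Oas3 (-0.48) were not called. Only 7 of the 14 passed a fold minimum of 2.

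The lists of metabolism, stress and growth follow. The NRF2 list had 5 of 18 tested genes higher and none lower, led by the cystine transporter gene Slc7a11 (2.05), Txnrd1 (1.37) and the autophagy receptor gene Sqstm1 (1.37). Sqstm1 was among the most abundant members, at 9.78 to 9.95 in DMSO and 11.20 to 11.28 in T/5z/N. Of 25 tested cholesterol genes 6 rose, none by more than 0.91 (Mvd), and the efflux gene Abcg1 fell by 0.71. At a fold minimum of 2 none of these 7 was called. Of the 18 tested stress response genes 5 rose, with Herpud1 (2.25) far ahead of Chac1 (0.95) and Ppp1r15a (0.74), and Psat1 fell by 0.73. In place of these 6, 2 genes of the list were called with 5 added before the log and 1 at a fold minimum of 2. In the FOXO-type list 8 of 22 fell and 4 rose. Tsc22d3, which encodes GILZ, fell from 5.57, 5.53, 5.45 and 5.57 to 3.78, 4.07, 4.01 and 3.89 (-1.59, SE 0.071), and the cell cycle inhibitor gene Cdkn1a rose by 1.24. Of 21 tested cell cycle genes 1 rose and 3 fell, and of 24 ribosome biogenesis genes 1 rose and 1 fell. These were Mki67 (0.79), Mcm6 (-0.74), Bub1b (-0.65), Mcm7 (-0.60), Rrs1 (0.84) and Heatr1 (-0.84).

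Whether the response depended on the choice of control was examined with the Nec-1s libraries, so that the inhibitor was in both groups. Nec-1s alone had 0 of the 10524 genes called against DMSO by limma (0%), with 892 at an unadjusted p below 0.05 and a median difference of 0.0027. Against Nec-1s, 1310 genes were called (12.4%), 634 higher (6.02%) and 676 lower (6.42%). Both comparisons share the T/5z/N libraries, so the values of the members are given side by side. Clec4e rose by 4.95 against Nec-1s and 4.93 against DMSO, Acod1 by 4.76 and 4.68, Nfkbia by 2.64 and 2.68, and Tnf by 1.17 and 1.07. Rgs2 fell by 2.60 and 2.60, Hpgd by 2.40 and 2.46, and Mertk by 1.88 and 1.90. With Nec-1s as the control, Ptges (4.49) and Cd40 (4.33) rose slightly less and Fpr2 (2.68) slightly more. Against Nec-1s in place of DMSO, the number of lower genes went from 9 to 7 in the AP-1 list, from 7 to 5 among MAP kinase feedback genes, from 2 to 1 among NF-κB inhibitors, from 10 to 9 among chemotactic and purinergic receptors, from 3 to 2 in the cell cycle list and from 8 to 9 in the FOXO-type list. The number of higher genes went from 14 to 13 among interferon-stimulated genes, from 6 to 4 among cholesterol genes, from 5 to 3 among stress response genes, from 4 to 3 in the FOXO-type list and from 2 to 1 among homeostatic genes, and the counts of the other lists were equal. Bub1b (-0.52) was the cell cycle gene named above that was not called against Nec-1s, while Arrdc3 was called only there (-0.61, against -0.51 for DMSO), without a test of the difference.

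How far the T/5z/N level lay from that of T/5z was then tested directly. Of the 10524 genes 754 differed (7.16%), with 278 higher in T/5z/N (2.64%) and 476 lower (4.52%), and the median difference was 0.043. Among the 71 genes that rose by at least 2 over DMSO, 52 were called lower in T/5z/N than in T/5z and 19 were not called. Of the 271 genes that fell by at least 1, 74 were called above T/5z, 15 below it and 182 were not called. The cutoffs for rises and falls differ, so the shares of the rises and the falls cannot be compared. These counts use the T/5z/N libraries on both sides. The plot of the kept and reduced changes shows the genes at either end.

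**Figure D3:**
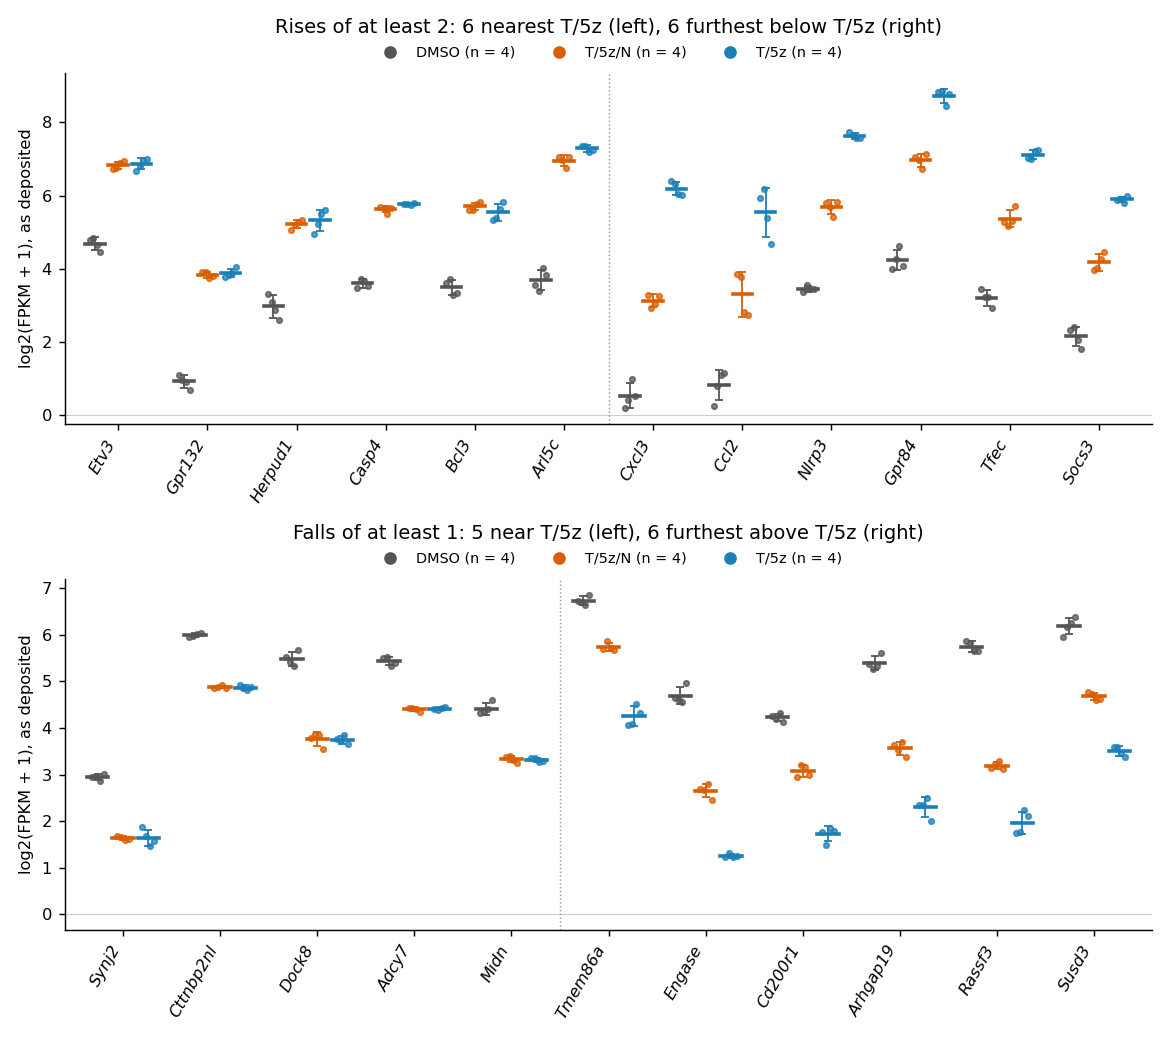
Levels as deposited log2(FPKM + 1) on the y axis of genes that rose by at least 2 (top) or fell by at least 1 (bottom) in T/5z/N against DMSO. Left of the dotted line are genes whose T/5z/N level was nearest to T/5z (6 rises and 5 falls) and right of it the 6 furthest from it, with points for single libraries and bars for the mean and SD of 4. On the left the orange T/5z/N and the blue T/5z points lie at about the same height, though those of Casp4 and Arl5c do not overlap. On the right the orange and blue points do not overlap, as the choice by distance favours.

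Several large rises stood at or near the T/5z level. Etv3, an ETS repressor gene, was at 4.80, 4.85, 4.65 and 4.46 in DMSO, 6.73, 6.74, 6.88 and 6.93 in T/5z/N and 6.68, 6.81, 6.98 and 6.99 in T/5z, and the difference from T/5z was -0.043 (95% interval -0.14 to 0.05). The T/5z/N and T/5z values of Etv3 overlapped. Gpr132, a receptor for oxidized lipids, differed from T/5z by -0.051 (-0.21 to 0.11) after a rise of 2.92 over DMSO, and Herpud1, a factor of endoplasmic reticulum protein disposal, by -0.11 (-0.26 to 0.041). Casp4 was lower than in T/5z by 0.15 (-0.24 to -0.051), Bcl3 was higher by 0.16 (0.034 to 0.28) and Arl5c lower by 0.33 (-0.44 to -0.22), all within the fold-change minimum. For Casp4 and Arl5c each T/5z/N library was below each T/5z library. Outside these 6, the NF-κB genes Relb (-0.062) and Nfkb2 (-0.21), the receptor genes Tlr2 (-0.24) and Tnfrsf1b (-0.15) and the autophagy receptor gene Sqstm1 (-0.11) differed from T/5z by less than 0.3. Only Relb had T/5z/N values that overlapped with those of T/5z, and for Nfkb2, Tlr2, Tnfrsf1b and Sqstm1 each T/5z/N library was lower.

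Other rises were far below T/5z. Cxcl3, a neutrophil attractant, was at 0.19, 0.41, 1.00 and 0.51 in DMSO, 3.28, 2.92, 3.05 and 3.25 in T/5z/N and 6.39, 6.31, 6.05 and 6.02 in T/5z, a difference of -3.07 from T/5z (SE 0.087, limma adjusted p 4.1e-07). Its T/5z/N libraries thus lay about midway between the other groups on the log2 scale. Ccl2 was 2.24 lower than in T/5z (SE 0.094), at 5.94, 6.18, 5.38 and 4.67 in the T/5z libraries. The inflammasome sensor gene Nlrp3, at 5.80, 5.69, 5.42 and 5.82 in T/5z/N and 7.73, 7.65, 7.56 and 7.59 in T/5z, was lower by 1.95 (SE 0.059). Gpr84 (-1.76), the transcription factor gene Tfec (-1.74) and Socs3 (-1.72), a brake on cytokine receptors, made up the 6. Tnf, at 6.12, 6.25, 5.51 and 5.74 in T/5z, was 1.99 lower in T/5z/N (SE 0.11), a larger difference than its rise over DMSO. By list, chemokines had 13 of 22 tested genes called lower and 1 higher than in T/5z (median -0.90), cytokines 12 of 26 lower and 1 higher, MAP kinase feedback genes 10 of 17 lower, NF-κB inhibitors 6 of 16 lower, and NF-κB subunits and IKK kinases none lower and 1 higher (median -0.21). Astrocyte markers summed to 15.6 to 27.8 FPKM in T/5z and fibroblast and mural markers to 16.2 to 28.7, both above the T/5z/N ranges given earlier, and their part in these differences was not tested.

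Among the falls, Dock8, an exchange factor for CDC42, was at 5.53, 5.41, 5.33 and 5.67 in DMSO, 3.79, 3.86, 3.85 and 3.54 in T/5z/N and 3.76, 3.72, 3.84 and 3.65 in T/5z (a difference of 0.018, 95% interval -0.11 to 0.14), and the T/5z/N and T/5z values overlapped. The phosphoinositide phosphatase gene Synj2, the adenylyl cyclase gene Adcy7, Cttnbp2nl and Midn were as near to T/5z, with differences of -0.0039, -0.019, 0.017 and 0.02. In contrast, Tmem86a was at 6.74, 6.71, 6.65 and 6.86 in DMSO, 5.70, 5.86, 5.72 and 5.67 in T/5z/N and 4.07, 4.09, 4.52 and 4.32 in T/5z, so that it stood 1.49 above T/5z (SE 0.087). Engase (1.40), an enzyme that trims N-glycans, Cd200r1 (1.34), Arhgap19 (1.26), Rassf3 (1.23) and Susd3 (1.17) were also called above T/5z without overlap. Of the 12 largest falls, 2 were called lower in T/5z/N than in T/5z, namely Gcnt1 (-1.38) and Thbs1 (-0.90). Fosl2 (-0.71), Nr4a1 (-0.87) and Dusp6 (-0.84) were also called lower than in T/5z, although their values overlapped with those of T/5z.

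T/5z/N was last compared with T/S/Z/N, the other group in which TNF and Nec-1s were given together, where a Smac mimetic and zVAD took the place of 5z-7. Here 356 genes differed (3.38%), 167 higher in T/5z/N (1.59%) and 189 lower (1.8%), with a median difference of 0.0095. Among the genes higher in T/5z/N, Calhm6 was at 6.29, 6.24, 6.05 and 6.11 in T/5z/N and 3.83, 3.77, 3.59 and 3.90 in T/S/Z/N (2.40, SE 0.051), and Gbp5 at 2.70, 2.70, 2.94 and 2.89 in T/S/Z/N (2.14, SE 0.095). Slc16a6, a transporter of the monocarboxylate family, was above DMSO in T/5z/N (0.93) and had a mean of 1.33 in T/S/Z/N against 2.66 in DMSO. Arrdc3 (1.55) and Snn (1.49) followed. On the other side, Plaur, the urokinase receptor gene, was at 3.00, 2.75, 2.34 and 2.11 in T/5z/N and 4.41, 4.45, 5.10 and 4.97 in T/S/Z/N (-2.18, SE 0.22). Cxcl2 (-1.97), Cxcl3 (-1.95), Socs3 (-1.85) and the ERK phosphatase gene Dusp4 (-1.84) were lower too, and the values of Dusp4 in T/5z/N overlapped with those in DMSO (2.05 to 2.18 and 2.01 to 2.17).

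**Figure D4:**
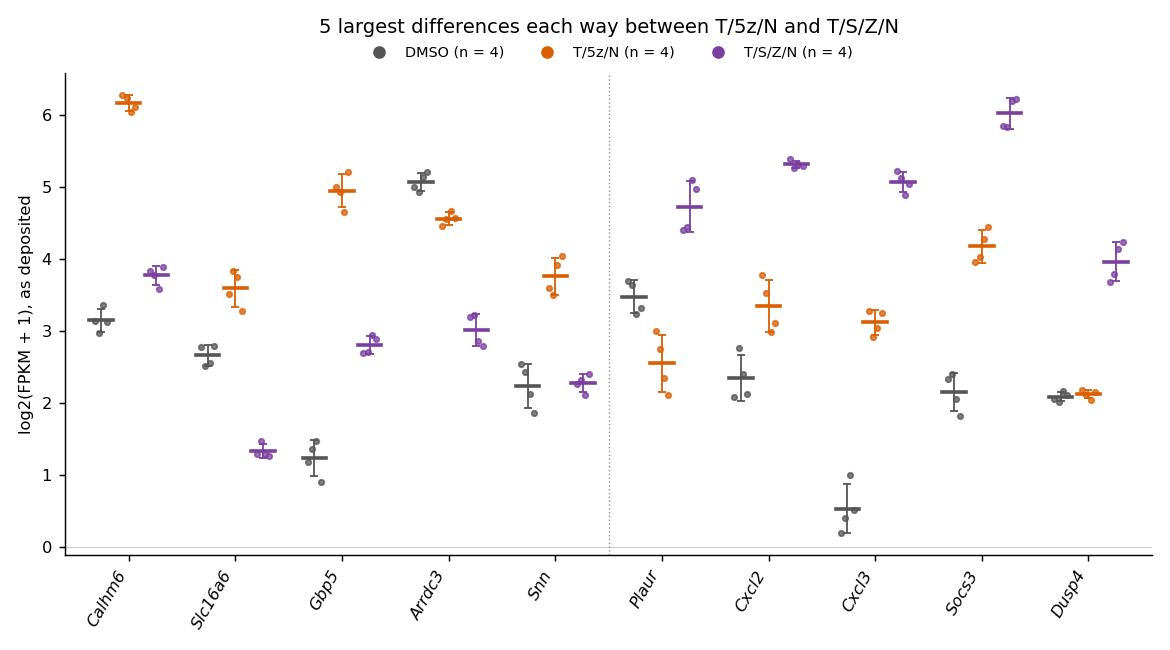
Levels as deposited log2(FPKM + 1) on the y axis of the 5 genes highest (left of the dotted line) and the 5 lowest (right) in T/5z/N against T/S/Z/N, among called genes. Grey points are DMSO, orange T/5z/N and purple T/S/Z/N libraries, and bars give the mean and SD of 4. The orange and purple points do not overlap in any of the 10 genes, as the choice by size of difference favours.

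The lists differed in how they stood between both groups. Interferon-stimulated genes were called higher in T/5z/N than in T/S/Z/N in 11 of 36 cases and lower in none (median 0.26), among them Irf1 (0.99) and Rsad2 (0.74). MAP kinase feedback genes were lower in 8 of 17 and higher in none (median -0.55), with Dusp6 at 2.57, 2.45, 2.73 and 2.36 in T/S/Z/N. Cytokines and growth factors were lower in 10 of 26 and higher in 2 (Il15, 1.07, and Csf1, 0.78), and immediate early genes lower in 4 and higher in 2 of 24. Chemotactic and purinergic receptors were lower in 7 and higher in 1 of 25. Of the 11 NF-κB subunits and IKK kinases 0 were called in limma, where 3.38% of all tested genes were, and Nfkb1 (0.015) and Relb (0.087) stood close in both groups. Of the 12 largest rises 8 were not called between both groups, with differences of 0.22 for Clec4e, -0.22 for Acod1, 0.13 for Icam1 and 0.29 for Cxcl10. Beside Gbp5, Cd40 was 0.94 higher in T/5z/N, and Ptges (-0.71) and Traf1 (-0.64) were lower.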

How the data were processed

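Polyadenylated RNA of the microglia was sequenced, and OmicSoft Array Studio served the authors for alignment, quantification and normalization. The library protocol used for microglia is not described as stranded in the sources used here, so reads of overlapping antisense genes cannot be told apart. The deposited values are log2(FPKM + 1), as the authors made them, with an upper quartile of 4.144 in each library of replicate 4 and 4.114 to 4.159 in replicates 1 to 3. In the deposited table, each gene's mean over the 6 treatments in replicates 1 to 3 also equals that of replicate 4 (largest difference 6.67e-05), a step the study's methods do not describe, and it left 187 to 1438 negative values per library of those replicates. Depth is not part of the table. Steps between low values in replicate 4 gave a depth of about 21.0 M reads or fragments for DMSO and 18.4 M for T/5z/N, up to the scaling, with 66.9% and 68.0% of low values within 0.1 of whole multiples, so counts were not recovered and no count test was run. Depth in replicates 1 to 3 is unknown.

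Groups were compared pairwise with limma 3.58.1 in R 4.3.3 (lmFit, eBayes with trend), on the libraries of the compared groups, with the replicate number as a block as in the study's own paired test, and p-values were 2-sided and adjusted by Benjamini-Hochberg over 10524 genes. The study states in general terms that cultured replicates are from different litters, without tying the numbers of these libraries to litters, so p-values measure the spread between these samples. The scripts were tested on simulated data. The pairing and all settings tried are given in the closing section.

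The genes, lists and markers described were chosen with earlier results of these data known. Single genes were named by rule, which took the 12 largest changes each way with 4 of 4 pairs alike, up to 4 called members per list by size, Tnf, its receptors, Ripk1 and Map3k7, the 6 rises of at least 2 and the 6 falls of at least 1 that were nearest to or furthest from T/5z, and the 5 largest differences each way from T/S/Z/N. Other list members are given to account for each list, and genes named outside the rule were chosen after their values were seen. The astrocyte tables were not used, and neither was the confounding mark as a filter. Some genes that the rule takes are not reported here.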

Additional observations from a re-analysis of the deposited data

Results flagged for a closer look

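Among those of the 125 named genes that were called against DMSO, and in the groups T/5z/N and DMSO, a single library stood apart from the other 3 by Dixon's test at 95% in 8 of the 240 groups that were checked, where chance gives about 1 in 20. That rate takes the values as independent, which the equal replicate means over the 6 treatments do not ensure. In T/5z/N, Birc3 was at 6.56 in replicate 4 against 6.31 to 6.35 in the others, Dusp2 at 4.01 in replicate 4 against 3.49 to 3.53, and Junb at 7.89 in replicate 1 against 7.96 in the other 3. Replicate 3 of T/5z/N stood apart in Sod2 (6.95 against 7.2 to 7.24), Fpr1 (4.3 against 4.75 to 4.8) and Heatr1 (2.79 against 2.56 to 2.59). In DMSO, Ifit1 was at 3.27 in replicate 4 against 3.73 to 3.8, and Chac1 at 0.663 in replicate 3 against 0.86 to 0.894. All 8 genes were called without any 1 of the 4 replicates.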

How the results depend on the processing

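The counts of called genes moved most with settings that weigh low or small changes. With 5 added before the log, 809 genes were called against DMSO, 782 against Nec-1s, 314 against T/5z and 159 against T/S/Z/N. Where genes had to average a log2 value of 3 or more, the counts were 851, 819, 385 and 227, where fewer genes were tested, and with a fold-change minimum of 2 they were 573, 559, 182 and 72. Without 1 replicate they ranged from 1254 to 1405, from 1229 to 1369, from 714 to 848 and from 350 to 376. The share of higher genes among those called against T/5z was 36.9%, and it was 27.2% under median centring of the libraries, 25.5% with 5 added and 23.6% at a fold minimum of 2, for which the cause was not tested.

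The replicate number was a block because the study paired its samples, yet values of the same number did not deviate together. For T/5z/N and DMSO the correlations of the deviations were -0.401 to -0.177 for equal numbers and -0.0223 to 0.232 for others, and equal replicate means over the 6 treatments favour negative values. With no replicate block 1352, 1311, 748 and 353 genes were called.

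Of the 125 named genes 120 were called against DMSO. None of the 125 changed direction in the settings run, of which a mean log2 value of 3 or more held 97 of them, and the number that lost their call was 17 at a fold minimum of 2, 8 with ordinary per-gene variance (among them Ccl2, Gadd45b and Vcam1), 7 with 5 added, 2 after quantile normalization and 1 after centring. Bub1b was not called without replicate 2 (-0.58). At a fold minimum of 2 the list calls against DMSO fell from 17 to 11 for chemotactic and purinergic receptors, from 14 to 8 for homeostatic genes, from 12 to 7 for pattern recognition, from 12 to 4 for the FOXO-type list, from 10 to 6 for inflammatory enzymes, from 7 to 4 for cell death, from 5 to 3 for NRF2 genes, from 4 to 0 for the cell cycle and from 2 to 0 for ribosome biogenesis. Where genes had to average 3 or more, cytokines went from 13 to 6 calls, immediate early genes from 12 to 7, MAP kinase feedback genes from 10 to 6, RGS genes from 4 to 2 and cell cycle genes from 4 to 1. Cell cycle calls were also down to 2 after quantile normalization and to 1 with 5 added before the log.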

Other observations

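Some genes were lower in T/5z/N than in both DMSO and T/5z, and they are given as values, chosen after these were seen. Both differences use the T/5z/N libraries. Ptgs2, which encodes cyclooxygenase-2, had a mean of 2.63 ± 0.37 in DMSO, 4.18 ± 0.28 in T/5z and 1.89 ± 0.27 in T/5z/N (SD, n = 4), and 2.82 ± 0.18 in T/S/Z/N. Its changes in T/5z/N were -0.74 against DMSO and -2.29 against T/5z. Rhob, a small GTPase gene, was at 6.42 ± 0.13 in DMSO, 7.13 ± 0.13 in T/5z and 5.35 ± 0.094 in T/5z/N (-1.07 and -1.78). The urokinase receptor gene Plaur was at 3.48, 4.26 and 2.55 and the urokinase gene Plau at 3.51, 4.11 and 2.83 in the same order. Klf2 was at 2.67, 2.96 and 1.41, and Il11 at 1.67, 0.83 and -0.13, the last below 0 because of the adjusted replicate means. On the opposite side were Trib3, a target of the integrated stress response, at 2.89 ± 0.045 in DMSO, 2.13 ± 0.20 in T/5z and 3.58 ± 0.051 in T/5z/N, the cytokine receptor gene Il21r at 3.72, 3.47 and 4.44, and Map3k14, the kinase gene of the noncanonical NF-κB pathway, at 2.68, 3.24 and 3.93. Trib3 was short of the fold-change minimum against Nec-1s (0.56).

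Outside the lists, other genes had large changes against DMSO and were also picked after their values were seen. The costimulatory ligand gene Icosl rose by 3.28 (SE 0.065), the early activation antigen gene Cd69 by 3.19 (SE 0.13), Tnfaip2 by 3.06, the kinase gene Src by 2.71, Malt1, a protease gene of the NF-κB pathway, by 2.13, the NAD-consuming enzyme gene Cd38 by 2.11 and Il4i1 by 2.59. Among the falls were the myeloid factor genes Cebpa (-1.93, SE 0.072) and Hhex (-1.58), the thrombomodulin gene Thbd (-2.26), the growth factor gene Hgf (-2.13), the IL-6 receptor gene Il6ra (-1.67) and the checkpoint gene Vsir (-1.83). All were called against DMSO, with limma adjusted p of at most 0.00106 (that of Il4i1), and the mark of the annotation is on Tnfaip2, Cd38, Il4i1, Cebpa, Hgf, Il6ra and Vsir.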
